A study of Mus musculus with 10 samples.

Results

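Tuft cells of the thymus are described here through 10 genes that mark them or serve the taste-like signalling and lipid-mediator synthesis they are known for. The genes were followed in sorted thymic epithelial cells (TEC) of mice that lack normal Foxn1 function. The set was Pou2f3, Avil, Sh2d7, Dclk1, Rgs13, Gnb3, Plcb2, Trpm5, Ltc4s and Il25, taken by symbol from a deposited table of raw counts. The 10 genes were all among the 15790 genes of the table, and all 10 passed the filter on low counts that left 12912 genes for testing. Of the 10, 6 reached the minimum of that filter in AR3_Het libraries alone (Pou2f3, Trpm5, Il25, Sh2d7, Plcb2 and Rgs13), so it was their AR3_Het level that let them pass. The other 4 (Avil, Dclk1, Gnb3 and Ltc4s) also reached it in at least 1 library of another group. Gnb3 did so in 1 nude library alone, too few to pass without AR3_Het.

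Tuft cells are rare chemosensory cells of epithelia such as gut and airway, and they are also found in the thymic medulla, where they derive from medullary TEC. A receptor coupled to a taste-type G protein activates phospholipase C beta 2, calcium is released from internal stores, and the cation channel Trpm5 opens. Activated tuft cells release the cytokine interleukin 25 and lipid mediators made from arachidonic acid, among them cysteinyl leukotrienes, and the transcription factor Pou2f3 is needed for the lineage to form. Foxn1 encodes the forkhead transcription factor on which TEC differentiation depends, and nu is a loss-of-function allele of it.

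The AR3_mut group held 3 libraries with the genotype Foxn1 del AR3 mut, from C57BL/6 mice of 4.5 weeks. The nude group held 4 libraries with the genotype nu/nu, from ICR mice of 5 weeks, and AR3_Het held 3 libraries with the genotype Foxn1 del AR3 het, from C57BL/6 mice of 4.5 weeks. The controls therefore carry 1 del AR3 allele themselves, and strain and age change together with the nu/nu genotype, so that their parts cannot be told apart. RNA from sorted cells was made into bulk libraries with MARS-seq, which reads the 3′ ends of transcripts, and nothing in the labels tells whether each library is its own animal.

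Total counts per library were between 1056066 and 2667973 in AR3_mut, between 1901282 and 3302161 in nude and between 2948283 and 4175851 in AR3_Het. Levels are given in CPM, counts scaled to the TMM-adjusted size of each library, on which scale 3 counts stand for between 0.618 and 2.97 CPM depending on the library. Foxn1 itself was at 1.56, 1.15 and 1.98 CPM in AR3_mut and at 1.44, 1.23, 0.55 and 0.82 CPM in nude, against 380, 316 and 366 CPM in AR3_Het. A list of 16 general epithelial genes took 0.274% to 0.631% of counts in AR3_mut, 0.646% to 0.873% in nude and 1.02% to 1.43% in AR3_Het. Genes of 8 cortical TEC markers took 0.125% to 0.153% in AR3_mut, 0.108% to 0.146% in nude and 2.57% to 3.14% in AR3_Het. Medullary TEC genes took 0.0180% to 0.0723% in AR3_mut, 0.0462% to 0.113% in nude and 0.113% to 0.173% in AR3_Het. Endothelial genes took 0.453% to 0.578% in AR3_mut, 0.106% to 0.199% in nude and 0.0182% to 0.0208% in AR3_Het. Fibroblast genes took 0.603% to 0.920% in AR3_mut, 0.695% to 1.52% in nude and 0.0347% to 0.0652% in AR3_Het. The libraries labelled AR3_mut and nude thus held more RNA of endothelium and fibroblasts and a smaller epithelial share than AR3_Het, and the part of this shift in each result below was not tested beyond the values given. AR3_Het 3 also stood apart, with 83.1 CPM of the Y-linked gene Ddx3y against 1.03 and 0.30 CPM in AR3_Het 1 and 2.

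Because the tuft genes moved together, the sequence just before their start sites is shown for the actin-regulator gene Avil, for the phospholipase gene Plcb2 and for the channel gene Trpm5. RefSeq promoter windows of the GRCm38.p6 build were found for 7 of the 10 genes, and Pou2f3, Il25 and Gnb3 had none in the table. Each sequence below is the 250 bases before the start on the gene's own strand, with searched motifs in capitals. The windows are chr10:127000459-127000708 on the plus strand for Avil, chr2:118728439-118728688 on the minus strand for Plcb2 and chr7:143094643-143094892 on the minus strand for Trpm5.
Avil: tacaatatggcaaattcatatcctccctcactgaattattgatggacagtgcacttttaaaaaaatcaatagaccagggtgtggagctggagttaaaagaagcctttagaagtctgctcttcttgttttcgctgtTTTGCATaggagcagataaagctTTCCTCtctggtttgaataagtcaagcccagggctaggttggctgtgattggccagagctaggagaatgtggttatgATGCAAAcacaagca
Plcb2: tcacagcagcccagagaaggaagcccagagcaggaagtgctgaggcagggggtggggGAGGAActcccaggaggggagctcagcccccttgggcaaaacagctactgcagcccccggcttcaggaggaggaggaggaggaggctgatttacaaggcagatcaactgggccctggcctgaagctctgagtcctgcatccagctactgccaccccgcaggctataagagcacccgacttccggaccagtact
Trpm5: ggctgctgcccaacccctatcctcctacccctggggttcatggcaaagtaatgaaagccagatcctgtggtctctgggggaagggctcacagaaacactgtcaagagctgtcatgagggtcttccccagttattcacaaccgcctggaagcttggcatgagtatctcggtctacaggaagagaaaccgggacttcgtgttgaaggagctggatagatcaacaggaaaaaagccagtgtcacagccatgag

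On either strand, the full octamer ATGCAAAT that POU factors bind was in 0 of the 7 genes' windows and in 1.6% of all 32851 windows of this length. The same word without its last base, ATGCAAA, was in the Avil window only, at 15 bases before the start on the plus strand and at 115 bases before it on the minus strand, and in 4.12% of all windows. The word GACGC, the core that forkhead factors of the Foxn1 type bind, was in 0 of the 7 and in 22.6% of all windows. GAGGAA, a core of ETS factors such as Spib, was in the windows of Avil, Dclk1 and Plcb2 and in 23.3% of all. These matches describe letters in short windows and do not show binding.

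Against AR3_Het, tuft cell genes were lower in both mutant groups, and for most of them nearly all counts were gone. In AR3_mut all 10 genes were lower with an adjusted p under 0.05 by edgeR's quasi-likelihood test, where 41.8% of all tested genes were called, 20.6% lower and 21.2% higher. In nude 9 of the 10 were lower and Dclk1 did not pass, where 47.9% of all tested genes were called, 24.2% lower and 23.7% higher. The median log2 difference of the 10 genes was −6.59 in AR3_mut and −7.18 in nude, against −0.04 and −0.03 over all tested genes. With genes at 0 counts set to their bound, these medians were −6.36 and −6.88. Medians found the same way were −6.05 and −7.48 for cortical TEC genes and −4.23 and −5.20 for medullary TEC genes. For T cell genes they were −6.59 and −7.58, and for neuroendocrine genes −6.61 and −5.88. A fall of this size was thus not particular to the tuft cell genes. For the 6 genes that passed the filter through AR3_Het alone, and for Gnb3, a call goes with how they passed. The counts and medians of the 10 genes, and the calls and adjusted p values of these 6 and of Gnb3 below, are a description. Avil, Dclk1 and Ltc4s reached the minimum in enough libraries of the other groups. All of these were lower in AR3_mut, and Avil and Ltc4s in nude. In every AR3_mut library each of the 10 genes lay below every AR3_Het library, a pattern held by 28.9% of tested genes. In nude, 9 of the 10 genes did so, as did 28.3% of tested genes. Fewer tuft cells and less of these transcripts per cell cannot be told apart in bulk libraries.

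**Figure D1:**
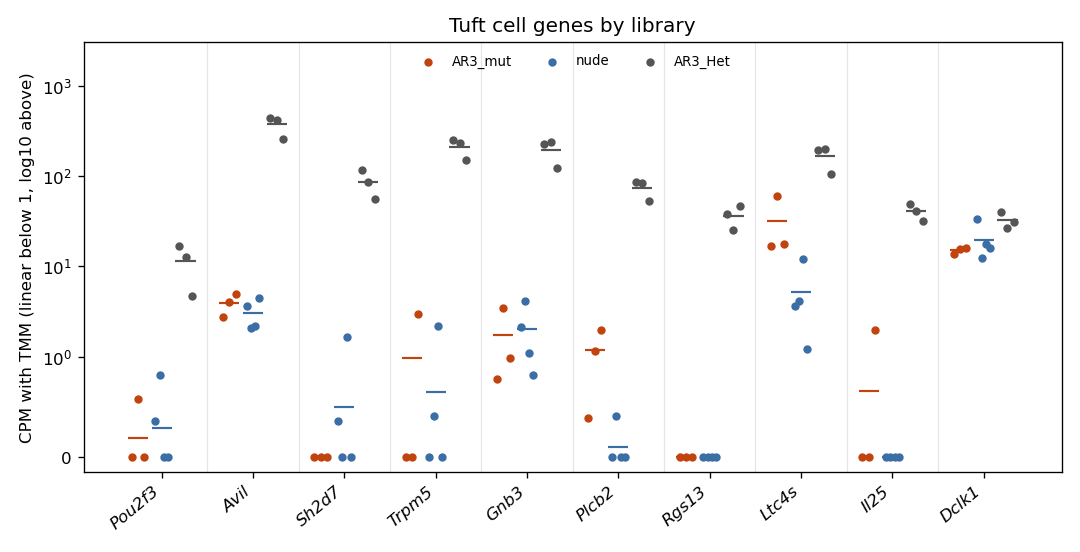
Level of each of the 10 tuft cell genes in every library, in CPM with TMM on an axis that is linear below 1 and log10 above it; points are libraries and bars are group means. AR3_mut and nude points lie far below AR3_Het for 8 genes, while Dclk1 stays between 12.3 and 39.6 CPM throughout and Ltc4s keeps a level between these extremes in AR3_mut.

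Pou2f3 encodes the POU-domain factor that specifies tuft cells, on chromosome 9 at 43123939 to 43210369 of the minus strand (GRCm38, GENCODE M21, as for all gene positions here). It had 0, 1 and 0 counts in AR3_mut and 1, 2, 0 and 0 in nude, against 82, 42 and 22 counts in AR3_Het. No mutant library came near an AR3_Het library. From pooled counts, the log2 ratio to AR3_Het was −5.92 for AR3_mut (95% counting interval −11.23 to −3.41) and −5.17 for nude (−7.46 to −3.59). The adjusted p values by edgeR's quasi-likelihood test were 8.88e-04 for AR3_mut and 2.34e-04 for nude. They are a description, since only its AR3_Het level let Pou2f3 pass the filter.

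Other regulators on a list of tuft-associated factors behaved alike in part. Of 16 tested, 10 were lower and 0 higher in AR3_mut, and 11 were lower and 0 higher in nude. For this and every list below, the shares over all tested genes were 20.6% lower and 21.2% higher in AR3_mut. In nude they were 24.2% and 23.7%. Hmx3, a homeobox gene, and Gfi1b, a zinc-finger repressor gene, had 0 counts in AR3_mut and in nude, with means of 14.6 CPM each in AR3_Het. Hmx3 was at least 26.5-fold lower in AR3_mut and at least 47.2-fold lower in nude than in AR3_Het. Hmx2, its neighbour of the same family, had 0 counts in AR3_mut and 1 in nude, against 207 in AR3_Het. 1810046K07Rik, for which the reference used gives no further name, had 0 counts in AR3_mut and nude, against 98.7, 97.8 and 45.9 CPM in AR3_Het, which made it at least 140-fold lower in AR3_mut and at least 250-fold lower in nude. Ascl2, a basic helix-loop-helix factor gene, had 2 counts in AR3_mut and 4 in nude, against 154 in AR3_Het.

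Some regulators kept a part of their level. Spib, the ETS factor gene of medullary TEC and lymphoid cells, was at 14.0, 24.2 and 8.92 CPM in AR3_mut and at 3.24, 2.88, 2.20 and 2.04 CPM in nude, against 310, 335 and 192 CPM in AR3_Het. The 3 groups did not overlap, and AR3_mut exceeded nude by 2.60 on the log2 scale (SE 0.38, adjusted p = 0.00205 by edgeR's quasi-likelihood test). Sox4, an SRY-box factor gene upstream of tuft cells in mouse gut, fell by a smaller amount, with log2 differences of −1.59 in AR3_mut and −1.53 in nude. Scaled to epithelial counts, both Sox4 calls were lost (−0.24, adjusted p = 0.704 in AR3_mut, and −1.18, adjusted p = 0.0836 in nude). Gm684, listed in RefSeq with the synonym Colca2, had mean levels of 9.60 ± 4.84 CPM in AR3_mut, 7.90 ± 1.81 CPM in nude and 36.3 ± 12.5 CPM in AR3_Het (SD, n = 3, 4 and 3). Pou2af1, the B cell coactivator of octamer-binding POU factors, was at 34.7, 6.92 and 0.99 CPM in AR3_mut and at 1.08, 0.41, 0.55 and 1.22 CPM in nude, against 10.3, 8.15 and 6.20 CPM in AR3_Het. It was lower in nude (−3.23, adjusted p = 0.00965) and was not called in AR3_mut (0.90, adjusted p = 0.344), where AR3_mut 1 lay above and AR3_mut 3 below every AR3_Het library. It was higher in AR3_mut than in nude (4.12, adjusted p = 0.0121). With epithelial counts it was called higher in AR3_mut than in AR3_Het (1.95, adjusted p = 0.0207). B cell genes took 0.0153%, 0.0108% and 0.00909% of counts in AR3_mut 1, 2 and 3, in the order of Pou2af1, and 0.00475% to 0.0104% in nude, against 0.0117% to 0.0146% in AR3_Het. Of 4 tested B cell genes, 2 were higher in AR3_mut than in nude, and their part in the level of Pou2af1 was not tested.

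Avil encodes advillin, an actin-severing protein of the tuft cell's microvillar bundle, on chromosome 10 at 127000709 to 127020994 of the plus strand. It was at 2.73, 4.04 and 4.96 CPM in AR3_mut and at 3.60, 2.05, 2.20 and 4.49 CPM in nude, against 442, 420 and 256 CPM in AR3_Het. All 7 mutant libraries lay within a narrow band, each with 4 to 11 counts. By edgeR's quasi-likelihood test, the log2 difference of AR3_mut from AR3_Het was −6.65 with an SE of 0.35 (adjusted p = 2.77e-07). That of nude was −6.87 with an SE of 0.31 (adjusted p = 7.04e-08). The 3′ end of Avil is covered on the opposite strand by Tsfm, whose highest count was 158, and whether strand was used in counting is unstated, so a few of the remaining counts could belong to that gene.

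Sh2d7 encodes an SH2-domain adaptor, on chromosome 9 at 54538984 to 54545020 of the plus strand, and its 3′ end is likewise covered by Cib2 on the other strand. It had 0 counts in each AR3_mut library and 1, 0, 3 and 0 counts in nude, against 558, 282 and 260 in AR3_Het. This made it at least 152-fold lower in AR3_mut, and its log2 difference in nude was −7.50 (SE 0.60, adjusted p = 8.3e-06 by edgeR's quasi-likelihood test). As for Pou2f3, this test of Sh2d7 is a description. Rgs13, a regulator that shortens G protein signalling, lies on chromosome 1 at 144138654 to 144177372 of the minus strand. It was the single gene of the 10 with 0 counts in all 7 mutant libraries, against 183, 83 and 216 counts in AR3_Het. Rgs13 was at least 66.4-fold lower in AR3_mut and at least 119-fold lower in nude.

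Dclk1, a doublecortin-like kinase gene used as a tuft cell marker and also expressed by neurons and other cells, was an exception to this near-complete loss. The gene spans 55242364 to 55539068 of the plus strand of chromosome 3. It was at 13.6, 15.6 and 15.9 CPM in AR3_mut and at 33.1, 12.3, 17.6 and 15.9 CPM in nude, against 39.6, 26.6 and 31.0 CPM in AR3_Het. All AR3_mut libraries lay below AR3_Het, whereas nude 1 lay inside the AR3_Het range. AR3_mut differed from AR3_Het by −1.12 on the log2 scale with an SE of 0.35 (adjusted p = 0.0219 by edgeR's quasi-likelihood test). Nude differed by −0.71 with an SE of 0.30, which was not called (adjusted p = 0.0753). Scaled to epithelial counts instead of TMM, the Dclk1 difference in AR3_mut was 0.064 (adjusted p = 0.908), and without AR3_mut 1 or without AR3_Het 1 the call was lost (adjusted p = 0.0704 and 0.0786). Dclk1 was called lower in nude as well without nude 1 (−1.09, adjusted p = 0.00406) and with library totals in place of TMM (−1.10, adjusted p = 0.00648). Genes of neural and Schwann cells took 0.0110% to 0.0191% of counts in AR3_mut and 0.0230% to 0.0306% in nude, against 0.00865% to 0.0100% in AR3_Het, and their part in the level of Dclk1 was not tested.

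**Figure D2:**
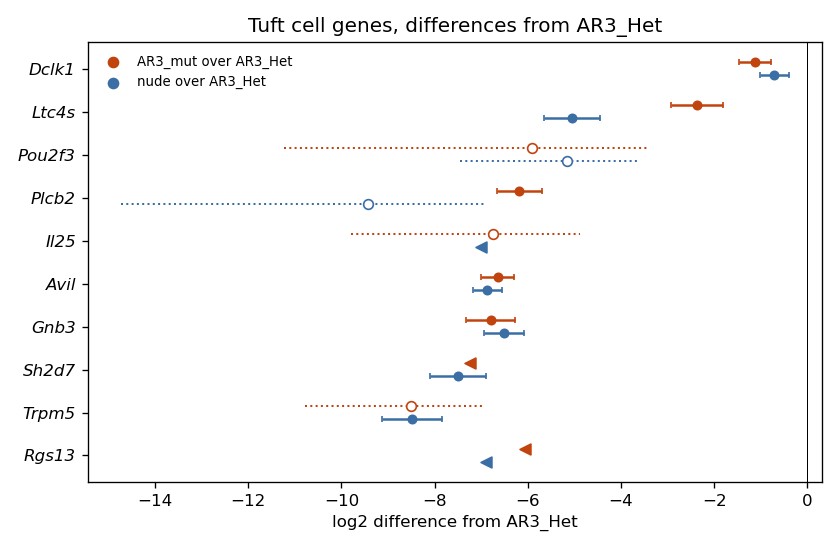
Log2 difference of each of the 10 genes from AR3_Het, for AR3_mut and for nude; filled points carry the SE of edgeR's quasi-likelihood test, open points are ratios of pooled counts with a 95% counting interval for genes with 1 to 3 counts in a group, and triangles are bounds for genes with 0 counts. Dclk1 lies nearest to 0 in both groups, and Ltc4s is the gene at which the 2 mutant groups stand farthest apart among those with a fitted value in both.

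The parts of the taste cascade typical of tuft cells fell by large amounts. Gnb3, a G protein beta subunit gene of chromosome 6 (124834240 to 124840275, minus strand), was at 0.78, 3.46 and 0.99 CPM in AR3_mut and at 2.16, 4.11, 1.10 and 0.82 CPM in nude, against 226, 239 and 123 CPM in AR3_Het. The log2 difference from AR3_Het was −6.80 with an SE of 0.53 for AR3_mut (adjusted p = 3.03e-06 by edgeR's quasi-likelihood test). For nude it was −6.52 with an SE of 0.44 (adjusted p = 7.91e-07). Mutant libraries of both kinds overlapped each other and lay far below AR3_Het. Plcb2, the phospholipase gene of chromosome 2 (118707517 to 118728438, minus strand), had 1, 2 and 2 counts in AR3_mut and 0, 1, 0 and 0 in nude, against 413, 274 and 245 in AR3_Het. Its log2 difference was −6.18 in AR3_mut (SE 0.48, adjusted p = 2.86e-06 by edgeR's quasi-likelihood test), and its pooled log2 ratio in nude was −9.43 (95% counting interval −14.73 to −6.94). Trpm5, the channel gene of chromosome 7 (143069153 to 143094642, minus strand), had 0, 0 and 3 counts in AR3_mut and 0, 1, 4 and 0 in nude, against 1197, 760 and 695 in AR3_Het. The Trpm5 counts of the mutants thus came from 1 of 3 AR3_mut libraries and 2 of 4 nude libraries. Its pooled log2 ratio was −8.51 in AR3_mut (95% counting interval −10.79 to −6.96), and its log2 difference in nude was −8.49 (SE 0.64, adjusted p = 1.73e-06 by edgeR's quasi-likelihood test). As for Pou2f3, the tests of Plcb2 and Trpm5 are a description. So is that of Gnb3, which reached the filter minimum in only 1 nude library besides AR3_Het.

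Partners of these proteins did not all follow. Of 13 tested genes of the wider cascade, 6 were higher and 2 lower in AR3_mut, and 6 were higher and 2 lower in nude. Over all tested genes, 21.2% were higher and 20.6% lower in AR3_mut, and 23.7% and 24.2% in nude. Gnat3, the alpha subunit gustducin of taste cells, had 1 count in AR3_mut and 1 in nude, against 354 in AR3_Het, with a pooled log2 ratio of −7.19 for AR3_mut (95% counting interval −12.50 to −4.71) and −8.03 for nude (−13.34 to −5.54). Gng13, the gamma subunit that pairs with Gnb3 in taste cells and is also expressed in neurons, was at 30.4, 73.2 and 59.5 CPM in AR3_mut and at 383, 609, 159 and 426 CPM in nude, against 285, 330 and 165 CPM in AR3_Het. Gng13 was lower in AR3_mut than in AR3_Het (−2.27, SE 0.47, adjusted p = 0.00246), was not called between nude and AR3_Het (0.60, SE 0.42, adjusted p = 0.262), and was lower in AR3_mut than in nude (−2.87, SE 0.47, adjusted p = 0.00357), all by edgeR's quasi-likelihood test. Nude therefore kept Gng13 at a level that overlapped AR3_Het while Gnat3 and Gnb3 were near 0. Other alpha and beta subunit genes of the list were not lost. By the same test, Gnb1 (0.89, adjusted p = 0.00556) and Gnat1 (1.64, adjusted p = 0.00955) were higher in nude than in AR3_Het. The 3′ end of Gng13 is covered on the opposite strand by Chtf18, whose highest count was 54. Scaled to epithelial counts, the Gng13 call in AR3_mut was lost (−0.88, adjusted p = 0.165).

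Broadly expressed parts of the cascade did not move one way. Itpr2, a calcium release channel gene of many cell types, was lower in nude (−1.07, adjusted p = 0.00146) and was not called in AR3_mut (−0.57, adjusted p = 0.0673). Itpr3, the calcium release channel that acts below Plcb2, averaged 81.2 ± 18.3 CPM in AR3_mut, 91.8 ± 18.8 CPM in nude and 75.5 ± 13.7 CPM in AR3_Het (SD, n = 3, 4 and 3), and was called in neither group (adjusted p = 0.781 and 0.302 by edgeR's quasi-likelihood test). With epithelial counts Itpr3 was called higher in AR3_mut (1.34, adjusted p = 0.00912). Gnai2, an inhibitory alpha subunit of many cell types, was higher in AR3_mut (1.04, adjusted p = 0.00111) and in nude (0.54, adjusted p = 0.0267), and the call in nude was lost in 9 of 13 alternatives, with adjusted p values up to 0.445 (0.18, with library totals in place of TMM). These included the fit of 2 groups (0.0513), epithelial counts (0.0581), the replicate block (0.1097) and the fits without nude 2, nude 4 or any 1 AR3_Het library (0.0649 to 0.146). Of the other isozymes of the phospholipase, Plcb1 was higher by 3.05 in AR3_mut (adjusted p = 6.04e-04) and 1.39 in nude (adjusted p = 0.0450), and Plcb3 by 1.14 in AR3_mut (adjusted p = 0.00121) and 0.92 in nude (adjusted p = 0.00253). Plcb4 was not called, at 0.83 in AR3_mut (adjusted p = 0.209) and 0.17 in nude (adjusted p = 0.791). Taste receptors were scarce even in AR3_Het. Of the 2 that could be tested, Tas1r1 had 1 count in AR3_mut and 1 in nude, against 46 in AR3_Het, and Tas1r3, its partner in the umami receptor, had 3 in AR3_mut and 5 in nude, against 52 in AR3_Het. The bitter receptor genes Tas2r105, Tas2r106 and Tas2r109 had 0 counts in AR3_mut and nude, against 21, 12 and 15 counts in AR3_Het.

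**Figure D3:**
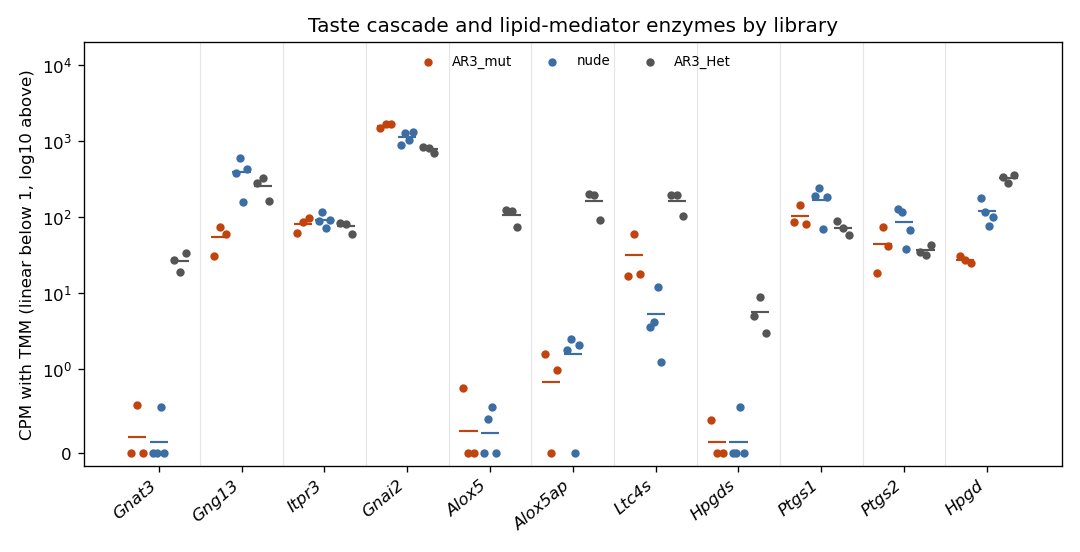
Level of taste cascade and lipid-mediator genes in every library, in CPM with TMM on an axis that is linear below 1 and log10 above it; points are libraries and bars are group means. Gnat3, Alox5, Alox5ap and Hpgds drop to near 0 in AR3_mut and nude, whereas Itpr3, Gnai2, Ptgs1 and Ptgs2 do not.

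Ltc4s, the synthase that joins leukotriene A4 with glutathione to make leukotriene C4, was the other gene with a remaining level, on chromosome 11 at 50236461 to 50238616 of the minus strand. It was at 16.8, 60.5 and 17.8 CPM in AR3_mut and at 3.60, 4.11, 12.1 and 1.22 CPM in nude, against 193, 198 and 104 CPM in AR3_Het. The 3 groups did not overlap, and AR3_mut 2 was well above the other AR3_mut libraries. For AR3_mut the log2 difference from AR3_Het was −2.37 with an SE of 0.56 (adjusted p = 0.00551 by edgeR's quasi-likelihood test). The difference of nude was −5.05 with an SE of 0.60 (adjusted p = 3.9e-05). Scaled to epithelial counts, the call in AR3_mut was lost (−0.83, adjusted p = 0.304). Mast cells and other myeloid cells are also known to express Ltc4s. Mast cell and basophil genes took 0.0298%, 0.0137% and 0.0135% of counts in AR3_mut 1, 2 and 3 and 0.00848% to 0.0121% in nude, against 0.0260% to 0.0382% in AR3_Het. Of their 13 measured genes, 8 were at 0 in AR3_mut and 6 in nude. Of 7 tested, 1 was higher in AR3_mut than in AR3_Het (Gata2, a transcription factor gene that endothelial cells also express, 4.88) and 4 were lower. Prg2, a granule protein gene of eosinophils, was the 1 called between AR3_mut and nude, higher in AR3_mut (4.08, adjusted p = 0.0368). Myeloid genes took 0.327%, 0.0355% and 0.0282% in AR3_mut 1, 2 and 3 and 0.00952% to 0.0242% in nude, against 0.0406% to 0.0721% in AR3_Het. AR3_mut 1 had the highest mast cell and myeloid shares of the AR3_mut libraries, and AR3_mut 2 the highest Ltc4s level and the lowest epithelial share (0.274%). Their part in the level of Ltc4s was not tested.

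Alox5 and Alox5ap, which act before Ltc4s in leukotriene synthesis, had larger negative log2 values than Ltc4s. Of 17 tested genes of lipid-mediator synthesis and breakdown, 2 were higher and 7 lower in AR3_mut, and 6 were higher and 8 lower in nude. The shares over all tested genes were 21.2% higher and 20.6% lower in AR3_mut, and 23.7% and 24.2% in nude. Alox5, the lipoxygenase that makes leukotriene A4, had 2 counts in AR3_mut and 2 in nude, against 1355 in AR3_Het, with a pooled log2 ratio of −8.13 for AR3_mut (95% counting interval −11.18 to −6.27) and −8.97 for nude (−12.01 to −7.11). Alox5ap, its activating membrane protein, was at 1.56, 0 and 0.99 CPM in AR3_mut and at 1.80, 2.46, 0 and 2.04 CPM in nude, against 203, 193 and 90.8 CPM in AR3_Het (log2 difference −7.38 in AR3_mut and −6.57 in nude). Summed over the same AR3_mut libraries, Ltc4s had 166 counts, Alox5 2 and Alox5ap 5. Hpgds, which makes prostaglandin D2, had 1 count in AR3_mut and 1 in nude, against 67 in AR3_Het. Ptgs1 and Ptgs2, the cyclooxygenases at the head of prostaglandin synthesis, were not called in AR3_mut (0.52, adjusted p = 0.309, and 0.26, adjusted p = 0.711) and were called higher in nude (1.23, adjusted p = 0.0161, and 1.25, adjusted p = 0.0399). The Ptgs2 call in nude was lost in 8 of 13 alternatives, among them library totals, epithelial counts, the replicate block and the fits without nude 1, nude 2 or any 1 AR3_Het library (adjusted p up to 0.131). The Ptgs1 call was lost in 3, with library totals and without AR3_Het 2 or 3 (adjusted p up to 0.0815). With epithelial counts, Ptgs1 (1.89, adjusted p = 0.00740) and Ptgs2 (1.64, adjusted p = 0.0486) were called higher in AR3_mut as well. Of the prostaglandin enzymes, Ptges was higher in AR3_mut (1.28) and nude (1.92). In nude, Ptges2 (0.69) and Ptges3 (0.61) were higher as well. Ptgds was lower in AR3_mut (−2.24, adjusted p = 1.40e-04) and in nude (−0.81, adjusted p = 0.0207). It was also lower in AR3_mut than in nude (−1.43, adjusted p = 0.0114, all by edgeR's quasi-likelihood test). With epithelial counts these Ptgds calls were lost (adjusted p = 0.0520, 0.466 and 0.250). Hpgd, which inactivates prostaglandins, fell by 3.56 in AR3_mut and by 1.47 in nude on the log2 scale, and was lower in AR3_mut than in nude (−2.10, SE 0.28, adjusted p = 0.00128 by edgeR's quasi-likelihood test). Alox12, a 12-lipoxygenase gene, was higher in AR3_mut (2.88) and in nude (1.59).

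Of 7 tested receptors for lipid mediators, 2 were higher and 3 lower in AR3_mut, and 1 was higher and 3 lower in nude. The same shares of all tested genes, 21.2% and 20.6% in AR3_mut and 23.7% and 24.2% in nude, apply here. The 3 lower ones in each group were leukotriene receptors, but the receptors of this kind did not all fall. Cysltr1, a cysteinyl leukotriene receptor that was not among the tested genes, went the other way. No AR3_Het library held reads of Cysltr1, and all AR3_mut and nude libraries lay above them. The bound on this rise was 8.06-fold for AR3_mut and 17.6-fold for nude. Ltb4r1 and Ltb4r2, which bind leukotriene B4, had log2 differences of −4.65 and −4.85 in AR3_mut and −4.86 and −5.59 in nude, with adjusted p values between 1.17e-05 and 2.39e-04 by edgeR's quasi-likelihood test. Ltb4r2 had 2 counts in its highest nude library, nude 3, so its AR3_Het level let it pass the filter. Its test is a description. Cysltr2, a receptor of cysteinyl leukotrienes, had 2 counts in AR3_mut and 1 in nude, against 125 in AR3_Het. Ptger4, a prostaglandin E2 receptor, was higher in AR3_mut (1.40, adjusted p = 0.0227) and was not called in nude (0.16, adjusted p = 0.780). Ptger3, another receptor for it, was not called in AR3_mut (0.059, adjusted p = 0.925) and was higher in nude (1.68, adjusted p = 0.00328).

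Il25 encodes the cytokine by which tuft cells act on lymphoid cells, on chromosome 14 at 54932695 to 54935837 of the plus strand. It had 0, 0 and 2 counts in AR3_mut and 0 in each nude library, against 237, 136 and 147 in AR3_Het. Its pooled log2 ratio was −6.75 in AR3_mut (95% counting interval −9.80 to −4.89), and it was at least 128-fold lower in nude. Around it, 3 of 9 tested genes of type 2 immunity were higher and 3 lower in AR3_mut, where 21.2% and 20.6% of all tested genes were. In nude, 3 were higher and 4 lower, where 23.7% and 24.2% of all tested genes were. Il17rb, a subunit of the receptor for this cytokine that tuft cells also carry, had 3 counts in AR3_mut and 19 in nude, against 349 in AR3_Het. Il13, a type 2 cytokine gene, had 1 count in AR3_mut and 1 in nude, against 61.8, 93.6 and 42.3 CPM in AR3_Het. Il33, an alarmin of stromal and epithelial cells, moved the other way, with a mean of 179 ± 64.8 CPM in AR3_mut, 266 ± 111 CPM in nude and 10.7 ± 4.31 CPM in AR3_Het (SD, n = 3, 4 and 3). Its log2 difference was 4.07 in AR3_mut and 4.63 in nude, and both passed the test.

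A longer list of other tuft-associated genes showed both a lost and a kept part. Of 40 tested, 23 were lower and 2 higher in AR3_mut, and 23 were lower and 4 higher in nude, with median log2 differences of −1.63 and −1.21. Chat, which makes acetylcholine, had 0 counts in all mutant libraries, against 12.0, 9.96 and 6.62 CPM in AR3_Het. Lrmp, an endoplasmic reticulum membrane protein gene, averaged 3.03 ± 2.68 CPM in AR3_mut, 3.65 ± 2.37 CPM in nude and 354 ± 95.8 CPM in AR3_Het (SD, n = 3, 4 and 3). Ly6g6f had 1 count in AR3_mut and 0 in nude, against 1129 in AR3_Het. Abundant genes of this list that other epithelial cells share differed less from AR3_Het. Krt18, a simple-epithelium keratin, fell by 1.51 in AR3_mut and by 0.88 in nude on the log2 scale, and Cd24a and Tmem176a were called in neither group.

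AR3_mut and nude, compared directly, differed in 1 of the 10 genes, where 11.3% of all tested genes were called, 7.6% higher and 3.71% lower in AR3_mut. That gene was Ltc4s, which averaged 31.7 ± 25.0 CPM in AR3_mut and 5.26 ± 4.74 CPM in nude (SD, n = 3 and 4), a log2 difference of 2.69 (SE 0.62, adjusted p = 0.0188 by edgeR's quasi-likelihood test). Each AR3_mut library lay above each nude library, which 12% of tested genes did. The call was lost without AR3_mut 2 (1.78, adjusted p = 0.0907), without nude 1 (adjusted p = 0.0593) and without nude 2 (adjusted p = 0.0536). Avil (0.22, adjusted p = 0.848), Gnb3 (−0.28, adjusted p = 0.863) and Dclk1 (−0.41, adjusted p = 0.482) were not called, and their SEs were 0.41, 0.73 and 0.34 on the log2 scale. Plcb2 had 5 counts in AR3_mut and 1 in nude, a pooled log2 ratio of 3.16 (95% counting interval −0.0016 to 8.72). For Trpm5 the counts were 3 and 5, and for the other 4 genes at least 1 group was at 0 or both were at 3 counts or fewer, so a difference between the mutants was not detectable at this depth.

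Against the epithelial content of each library the contrast between groups remained. The 10 genes together gave 6.20, 30.3 and 7.05 counts per 1000 counts of the 16 epithelial genes in AR3_mut and 5.37, 3.53, 4.04 and 3.08 in nude, against 138, 107 and 105 in AR3_Het. Ltc4s supplied 105 of the 148 summed counts of AR3_mut 2, the library whose ratio stood above the other mutants. As a share of all counts, the 10 genes took 0.00330% to 0.00829% in AR3_mut and 0.00203% to 0.00363% in nude, against 0.107% to 0.169% in AR3_Het.

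**Figure D4:**
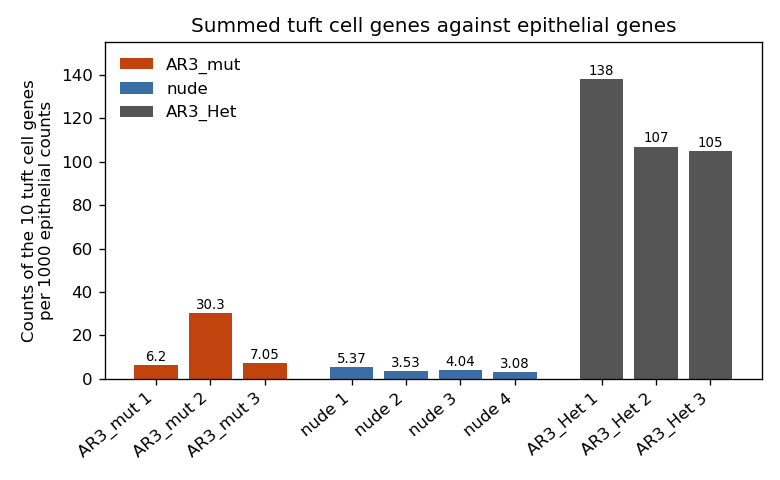
Summed counts of the 10 tuft cell genes per 1000 summed counts of 16 epithelial genes, 1 bar for each library. AR3_mut and nude bars lie between 3.08 and 30.3, and AR3_Het bars between 105 and 138.

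Of the 10, 8 were lowest in AR3_Het 3, the library with Ddx3y reads, 7 were highest in AR3_Het 1 and 2 in AR3_Het 2. Over all tested genes, 43.1% were lowest in AR3_Het 3 and 28.8% highest in AR3_Het 1, and of the 102 other genes on the tuft cell, taste and lipid lists 72 were lowest in AR3_Het 3. That library also had the lowest epithelial share of the AR3_Het libraries (1.02%), and its part in this order was not tested. The exceptions were Dclk1, which was lowest in AR3_Het 2, and Rgs13, which was highest in AR3_Het 3 at 46.2 CPM against 37.7 and 25.1 CPM in AR3_Het 1 and 2. The widest range was that of Pou2f3, 3.59 times between its highest and lowest AR3_Het library, and the narrowest that of Dclk1, 1.49 times. Without AR3_Het 3, all 10 genes were called lower in AR3_mut, as were 2676 of 13228 tested genes. In nude 9 were, as were 3105 of 13228. For the 6 genes that passed the filter through AR3_Het alone, and for Gnb3, these calls go with how they passed.

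Genes of any function whose profile over the 10 libraries was most like the mean profile of these 10 were ranked by the root mean square difference of centred log2 CPM, among 8591 genes with a group mean of 20 CPM or more. The measure includes the difference between groups and is a description. The nearest 8 were Zp2, Tmem45b, Saa2, Fam213b, Sh2d4b, Zar1, Cdh17 and Gc, at 0.26 to 0.31 log2 units. Several are known from other tissues, such as Zp2 and Zar1 from oocytes, Saa2 and Gc from liver and Cdh17 from intestine, and Fam213b, named Prxl2b in RefSeq, is known as a prostaglandin F synthase. Fam213b kept 34.3, 32.3 and 44.6 CPM in AR3_mut and 34.9, 25.1, 23.1 and 28.5 CPM in nude, against 1242, 1052 and 885 CPM in AR3_Het. The 10 genes themselves lay at 0.45 (Rgs13) to 2.04 (Dclk1) from their own mean profile. Ltc4s was at 1.24 and Trpm5 at 1.21, so Dclk1, Ltc4s and Trpm5 were the least typical of the set. They departed in opposite ways. In nude, Dclk1 (−0.71) and Ltc4s (−5.05) fell less than the median of the 10 (−7.18), and Trpm5 (−8.49) fell more.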

How the data were processed

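The deposited table holds whole-number counts for 15790 genes in 10 libraries, which the authors gave beside 20 normalized or transformed columns that were not used. Builds and tools listed in the submitters' processing notes are mm10, STAR 2.4.2a, cutadapt, bcl2fastq, HTSeq and DESeq2. Their roles, the annotation, any collapse of molecular identifiers and the use of strand are unstated. The lowest maximum of any gene was 6 counts, so rarer genes are not covered here.

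The test was edgeR 4.0.16 under R 4.3.3. The filter was filterByExpr (minimum count 10, minimum total 15), library sizes were scaled by TMM, and 1 robust quasi-likelihood model with group as its term was fitted to the 10 libraries, with a common dispersion trend for the 3 groups. Then AR3_mut and nude were each tested against AR3_Het, and AR3_mut against nude, all two-sided. Adjusted p-values are Benjamini-Hochberg values over all 12912 genes left, and 0.05 was the limit for a call. An SE is the absolute log2 difference divided by the square root of the F statistic. The p-values cover the variation among these 10 libraries, which may be technical. A gene at 0 counts in a group has a bound computed from 3 counts over that group. A gene with 1 to 3 counts has a ratio of pooled counts with an exact 95% binomial interval. Intervals and bounds cover counting error only. The steps were tested on simulated counts.

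The 10 genes and all lists were chosen with earlier results of these data known. From each list the rule names the 4 genes with the highest mean CPM and those called against the list's majority; other genes named from the lists, and those with 0 counts, were chosen after their values were seen. Alternatives were library totals, summed epithelial counts, no filter, DESeq2 1.42.0, fits of 2 groups, a replicate block and leaving out each library. Promoter windows came from the RefSeq table of GRCm38.p6 and gene positions from GENCODE M21 on GRCm38.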

Additional observations from a re-analysis of the deposited data

Results flagged for a closer look

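Among the 4 nude libraries, 1 library stood away from the other 3 for 9 of 53 genes examined, by a gap test that chance passes in about 1 of 20 groups of continuous values. In 7 of these a single count did so, with the other 3 libraries at 0. Such counts always pass the test, so that rate does not apply to them and the number of genes is no result. They were Plcb2 (0.411 CPM in nude 2), Cysltr2 (0.411 CPM in nude 2), Gnat3 (0.551 CPM in nude 3), Hpgds (0.551 CPM in nude 3), Hmx2 (0.360 CPM in nude 1), Tas1r1 (0.408 CPM in nude 4) and Il13 (0.408 CPM in nude 4). Ltb4r2 had 2 counts in nude 3 (1.10 CPM), with the other libraries at 0.360 to 0.411 CPM. Il17rb had 13 counts in nude 3 (7.16 CPM), with the others at 0.411 to 1.22 CPM.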

How the results depend on the processing

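Of the 10 tuft cell genes, 7 of 9 tested were called lower in AR3_mut with epithelial counts in place of TMM, 9 without AR3_mut 1 or without AR3_Het 1, and 10 under each other alternative. Over all tested genes, 857 of 12441 were lower with epithelial counts, 2617 of 13390 without AR3_mut 1 and 2154 of 13164 without AR3_Het 1. Under the others, 2256 (of 13243, without AR3_Het 2) to 3855 (of 12912, library totals) were lower. In nude, 8 to 10 were called lower. These were 8 with epithelial counts, as were 1474 of 12441 tested genes, and 10 with library totals (4842 of 12912) or without nude 1 (2817 of 12800). For the 6 genes that passed the filter through AR3_Het alone, and for Gnb3, calls against AR3_Het go with how they passed. Dclk1 in AR3_mut turned to 0.064 with epithelial counts. Between AR3_mut and nude, 2 of the 10 were called with epithelial counts, 0 with the replicate block and 0 to 1 when a library was left out. Over all genes, 1460 were called in that comparison, 2914 with epithelial counts, 952 with the 2 groups only, 948 with the replicate block and 883 to 1993 when a library was left out, with 883 without nude 1 and 904 without AR3_mut 1. The directions of genes that were not called also turned. Dclk1 and Gnb3 between AR3_mut and nude were 0.42 and 0.52 with epithelial counts, and Gnb3 lay between −1.29 and 0.27 when a library was left out. In AR3_mut, with library totals, Itpr3 was −0.19 and Ptgs2 −0.038, and in nude Itpr3 was −0.081. When a library was left out, these values in AR3_mut lay between −0.13 and 0.27 for Itpr3, −0.44 and 0.67 for Ptgs2, and −0.89 and 1.37 for Pou2af1. Their causes were not tested.

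The replicate numbers gave no clear sign of pairing libraries, and so few libraries cannot exclude it. The deviations of same-numbered libraries correlated at 0.03, −0.31 and −0.12 between AR3_mut and AR3_Het, at −0.03, −0.003 and 0.02 between nude and AR3_Het, and at −0.02, 0.16 and −0.04 between AR3_mut and nude. Differently numbered libraries lay between −0.24 (nude 1 with AR3_Het 2) and 0.30 (AR3_mut 2 with AR3_Het 3). With the replicate block, 10 of the 10 genes were called lower in AR3_mut and 9 in nude, where 2330 and 2623 of 12912 tested genes were lower. Ltc4s between AR3_mut and nude was 2.18 (adjusted p = 0.0781).

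Scaling moved the median of all genes. With epithelial counts it was 1.19 in AR3_mut, 0.40 in nude and 0.78 between AR3_mut and nude, and with library totals −0.33, −0.40 and 0.06. Higher calls made up 50.7% in AR3_mut, 35.0% with library totals and 88.9% with epithelial counts. In nude these shares were 49.5%, 30.8% and 67.2%, and between AR3_mut and nude 67.2%, 75.2% and 97.2%. At depths of 1056066 to 2667973 counts, AR3_mut libraries could not resolve levels under about 1.17 to 2.97 CPM.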
